A study of Homo sapiens with 11 samples.

Results

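The genes described here are 40 members of the ATF4 branch of the amino acid stress response, out of 23287 genes in the tables. They were listed by gene symbol with earlier results of these data known, so comparisons with all genes are descriptions and not independent support. The list holds 14 stress factors, 12 enzymes of amino acid and one-carbon metabolism, 7 amino acid transporters and 7 cytosolic tRNA synthetases. All 40 were found. RNA was sequenced from the human embryonic stem cell lines H1 and H7 in 11 libraries, with 1 library per group and therefore no replicates within a group. In 9 libraries the cells had been infected with a lentivirus and collected 5 days later. They carried an shRNA against pCCNE1, a primate-specific form of the cyclin E1 gene CCNE1, an shRNA named uCCNE1, or a control shRNA. Each shRNA was used in H7 cells in the naive medium 5iLA, in H1 cells in the naive medium t2iGo, and in primed H1 cells. The other 2 libraries were H7 cells in 5iLA and primed H7 cells, both without treatment. Nothing in the labels says whether an H1 or H7 culture was 1 clone or a pool.

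ATF4 is a transcription factor whose messenger RNA is translated more when the initiation factor eIF2 is phosphorylated by kinases that sense amino acid shortage, unfolded proteins in the endoplasmic reticulum, haem deficiency or viral RNA. Its protein then switches on genes for serine, asparagine and proline synthesis, mitochondrial folate enzymes, amino acid transporters, tRNA synthetases and further stress factors. Because control acts largely on translation, the level of ATF4 messenger RNA and the levels of its target messenger RNAs need not move together. In rapidly dividing stem cells these genes are also known for feeding one-carbon units and amino acids into nucleotide and protein synthesis.

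ATF4 commonly binds a composite C/EBP-ATF element, searched here as the letters TGATGNAA on both strands. The search covered RefSeq promoter windows of build GRCh38.p14, from 250 bases before to 50 bases after each annotated start. Of the 33 members with a window, 12 held the element (36.4%), against 1217 of 27305 genes with a window (4.46%). Per window, 22.6% of 53 member windows and 3.62% of all 35116 windows held it. NUPR1, PSPH, SHMT2, ALDH1L2, PYCR1, SLC7A11 and SLC7A3 had no entry. The stretches below are shown because they place the element upstream of the start in 5 of the members named with values below. They are on the strand of the gene, with the element in capitals. They lie on chr16:70289651-70289728 (minus strand), chr7:97872434-97872511 (minus), chr1:212565181-212565258 (plus), chr15:40953227-40953304 (plus) and chr19:46784869-46784946 (minus), in the order given.
AARS: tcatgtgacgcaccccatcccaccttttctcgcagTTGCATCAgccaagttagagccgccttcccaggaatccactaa
ASNS: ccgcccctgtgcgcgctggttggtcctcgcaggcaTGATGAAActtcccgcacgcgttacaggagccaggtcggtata
ATF3: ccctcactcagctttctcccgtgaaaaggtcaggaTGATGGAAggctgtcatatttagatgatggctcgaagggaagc
CHAC1: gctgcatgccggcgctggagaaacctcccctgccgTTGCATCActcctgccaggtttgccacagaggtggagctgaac
SLC1A5: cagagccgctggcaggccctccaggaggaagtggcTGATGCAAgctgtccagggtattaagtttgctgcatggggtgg
The first base of the element lay 187, 68, 191, 209 and 97 bases before the start in AARS (AARS1 in RefSeq), ASNS, ATF3, CHAC1 and SLC1A5. In AARS and CHAC1 the match was on the reverse strand. CEBPG and GARS (GARS1 in RefSeq) also held it upstream, while in MARS, NARS, SLC1A4, SLC3A2 and SLC7A1 it overlapped or followed the start. The windows of PCK2, TRIB3, DDIT4, PHGDH and SLC7A5 did not contain these letters. A match is a description of the letters and not evidence of binding.

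The libraries differed in ways that bear on every value below. Levels are RPKM, reads scaled by transcript length and library size, and differences are on log2(RPKM + 1), a scale that understates the change of low genes. Depth was inferred from the steps between low values and came to 6.344 to 24.67 M reads, which is approximate. Short RNAs held 12.9% to 24.3% of summed RPKM in the 5iLA shRNA libraries, 13.1% to 16.7% in t2iGo and 0.212% to 0.516% in primed H1. Differences are therefore also given after median-ratio scaling. It takes the genes above 1 RPKM in every library compared and sets the median of their log2 ratios to the gene's mean equal between libraries. The median of all genes tested need not become 0. The primed H1 libraries carry names of another scheme in the labels, and their preparation and their culture cannot be told apart. The 10 naive state markers summed to 492.5 to 862.4 RPKM in the 5iLA shRNA libraries, to 3.995 to 5.579 RPKM in t2iGo H1 and to 4.011 to 5.354 RPKM in primed H1. DPPA3, DPPA5, DNMT3L and ALPPL2, which define the naive state, were all under 1 RPKM in the 3 t2iGo libraries, so the naive label of t2iGo was not borne out by these markers and the libraries are called by their medium. The 8 general pluripotency markers were detected in every library. The targeted gene CCNE1 had 8.38 and 5.27 RPKM with pCCNE1 and uCCNE1 shRNA in 5iLA H7, against 14.1 with control. It had 5.25 and 5.38 RPKM with pCCNE1 and uCCNE1 shRNA in t2iGo H1, against 9.65 with control. It had 10.55 and 6.75 RPKM with pCCNE1 and uCCNE1 shRNA in primed H1, against 12.0 with control, and gene-level values cannot separate the forms of the transcript. In bulk RNA, fewer cells of a type and less RNA per cell cannot be told apart.

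The members ran from levels near 0 to the high level of ATF4, and their order differed between cultures. In primed H1, ATF4 averaged 366.9 ± 30.4 RPKM over the 3 shRNA libraries (SD, n = 3), followed by PHGDH at 307.0 ± 32.5 and PSAT1 at 231 ± 53.0, both enzymes of serine synthesis. The ranges of neighbours in this order overlapped. In 5iLA H7 the first was WARS, the tryptophanyl-tRNA synthetase, at 112 ± 42.3 RPKM, then ATF4 at 92.7 ± 27.4 and MTHFD2, a mitochondrial folate enzyme, at 82.8 ± 41.2 (SD, n = 3 each), again with overlapping ranges. MTHFD2 has 7 annotated pseudogene copies, and its exons overlap SLC4A5 on the other strand. In t2iGo H1, ATF4 at 111 ± 4.21 RPKM was followed by NARS, the asparaginyl-tRNA synthetase, at 71.7 ± 4.54 and EPRS, the glutamyl-prolyl-tRNA synthetase, at 63.3 ± 0.678 (SD, n = 3 each), and these 3 ranges did not overlap. SLC1A4, a neutral amino acid transporter, was low in every shRNA library, between 0.277 and 1.04 RPKM, and was the only member under the mean of 1 RPKM that the tests required, which leaves 39 tested.

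**Figure D1:**
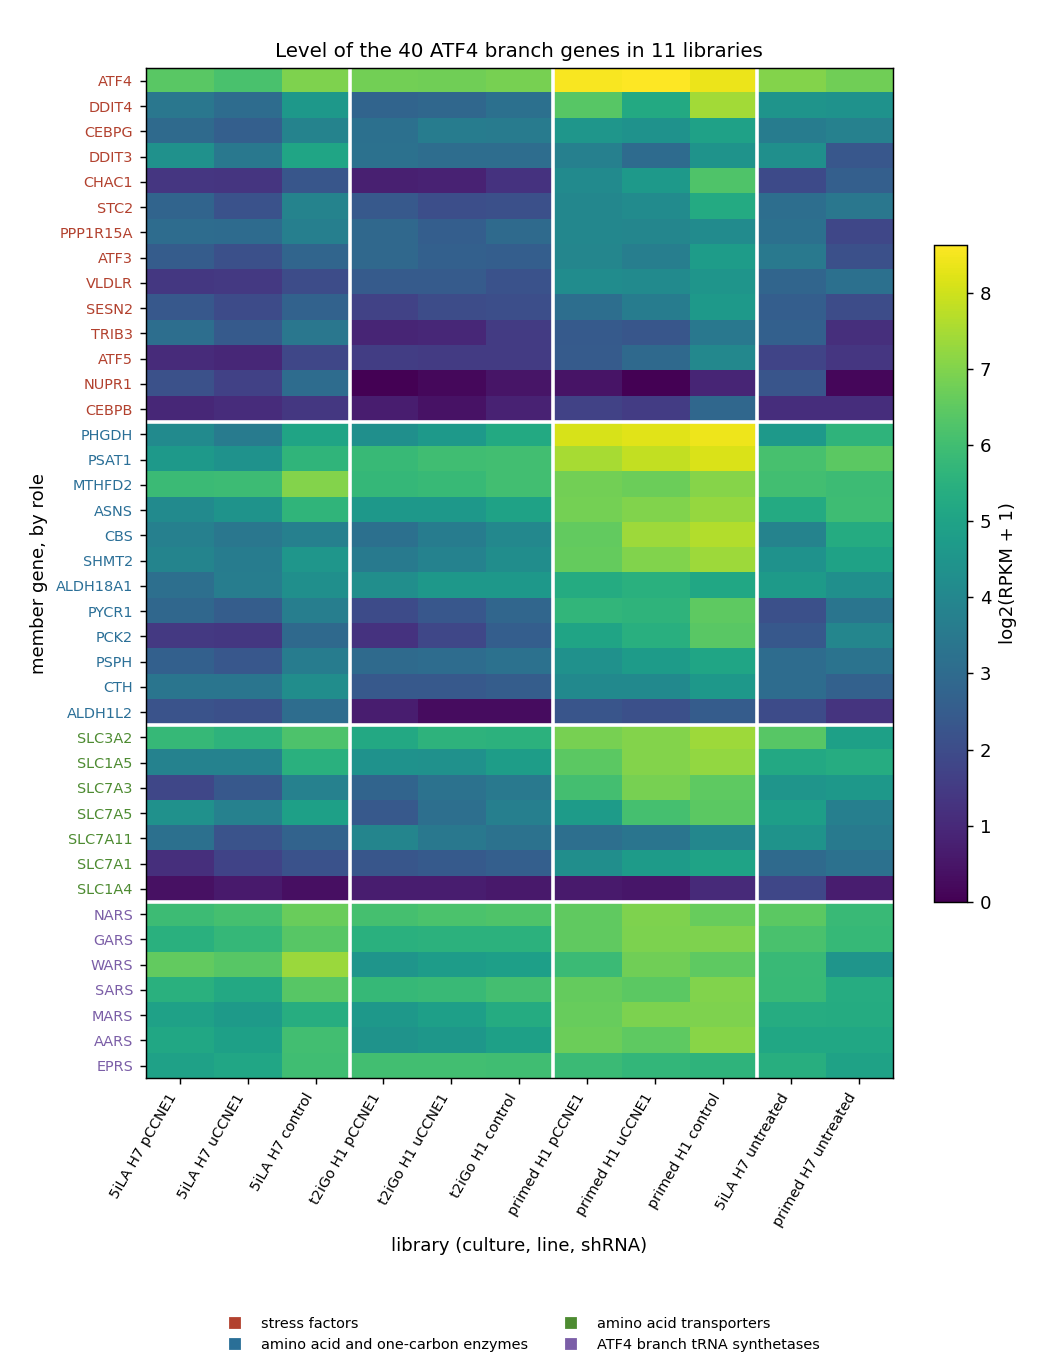
Level of each of the 40 members (rows, grouped by role and coloured by role) in the 11 libraries (columns), as log2(RPKM + 1) on a colour scale. The primed H1 libraries are brightest for most members, and within 5iLA H7 and primed H1 the control shRNA column is brighter than the CCNE1 shRNA columns for many rows.

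With either CCNE1 shRNA, the members were lower than control as a group, by a moderate amount and with no member past the threshold. This comparison asks how ATF4 branch genes stand after knockdown of cyclin E1 across cultures, and the 3 cultures stand in for replicates, so its p-values measure only the spread between these libraries. All 39 tested members had a log2 difference below 0, against 75.9% of all 12116 genes tested. Their median was -0.58, against -0.14 over all genes. After median-ratio scaling 38 of 39 were below 0, against 55.2% of all genes, and the medians were -0.44 and -0.03. None passed an adjusted p of 0.05 in limma, as did 0% of all genes. At an unadjusted p under 0.05, 29 of 39 were lower, against 13.9% of all genes, and after median-ratio scaling 26 of 39, against 8.25%. By role, as deposited, the 29 were 11 of 14 stress factors, 10 of 12 enzymes, 5 of 6 transporters and 3 of 7 tRNA synthetases, and the 26 after median-ratio scaling were 10, 9, 4 and 3 of them.

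PCK2, the mitochondrial phosphoenolpyruvate carboxykinase, stood first. It had 1.70 and 1.63 RPKM with pCCNE1 and uCCNE1 shRNA in 5iLA H7, against 6.78 with control. It had 1.41 and 2.58 RPKM in t2iGo H1, against 5.04 with control, and 32.1 and 42.1 RPKM in primed H1, against 84.3 with control. Each of the 6 CCNE1 shRNA libraries was therefore below the control of its culture, at 24.0% to 51.3% of it. The log2 difference was -1.25 ± 0.17 (SE; limma, adjusted p = 0.113). Among the 7174 genes with a mean of at least 5 RPKM, PCK2 was the 1 member of 34, and the 1 gene in all (0.0139%), that passed (limma, adjusted p = 0.0243).

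CHAC1, which breaks down glutathione, had 1.56 and 1.54 RPKM with pCCNE1 and uCCNE1 shRNA in 5iLA H7, against 3.96 with control. It had 0.674 and 0.775 RPKM in t2iGo H1, against 1.43 with control, and 16.6 and 24.4 RPKM in primed H1, against 75.8 with control. All 6 libraries were below their control, most so in primed H1, where pCCNE1 shRNA left 21.9% of control. The log2 difference was -1.10 ± 0.22 (limma, adjusted p = 0.160). DDIT4, an inhibitor of the growth kinase mTORC1, had 9.82 and 7.23 RPKM with pCCNE1 and uCCNE1 shRNA in 5iLA H7, against 23.2 with control. It had 5.93 and 6.30 RPKM in t2iGo H1, against 8.09 with control, and 83.8 and 37.1 RPKM in primed H1, against 172.6 with control. DDIT4 was again below control in every culture, with the smallest gap in t2iGo H1, and its log2 difference was -1.11 ± 0.25 (limma, adjusted p = 0.160).

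TRIB3, a pseudokinase that binds ATF4, had 7.68 and 4.50 RPKM with pCCNE1 and uCCNE1 shRNA in 5iLA H7, against 9.64 with control, and 0.836 and 0.928 RPKM in t2iGo H1, against 1.82 with control. In primed H1 it had 4.49 and 3.95 RPKM, against 9.85 with control. Its log2 difference was -0.75 ± 0.17 (limma, adjusted p = 0.160). NUPR1, a small stress-induced nuclear protein, was above 1 RPKM in the 3 shRNA libraries of 5iLA H7, with 3.38 and 2.18 RPKM with pCCNE1 and uCCNE1 shRNA, against 7.32 with control. It was under 1 RPKM in all t2iGo and primed H1 libraries and listed at 0 in 2 of them, and its log2 difference was -0.74 ± 0.19 (limma, adjusted p = 0.160).

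Among the enzymes, PYCR1, which completes proline synthesis in mitochondria, had 6.44 and 4.83 RPKM with pCCNE1 and uCCNE1 shRNA in 5iLA H7, against 11.9 with control, and 2.90 and 4.04 in t2iGo H1, against 6.17 with control. In primed H1 it had 49.9 and 47.7 RPKM, against 88.4 with control. The log2 difference was -0.84 ± 0.17 (limma, adjusted p = 0.160), and all 6 libraries lay at 40.6% to 65.4% of their control. SHMT2, which moves the serine carbon onto folate in mitochondria, had 13.8 and 11.2 RPKM in 5iLA H7, against 21.9 with control, 10.4 and 13.2 RPKM in t2iGo H1, against 17.6 with control, and 96.1 and 126 RPKM in primed H1, against 163 with control. Its log2 difference was -0.63 ± 0.17 (limma, adjusted p = 0.160). The reads of SHMT2 may include those of NDUFA4L2, whose exons overlap it on the other strand, since the sources used here do not say whether counting used strand.

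Among the transporters, SLC7A5, the carrier of leucine and other large neutral amino acids, had 19.7 and 13.0 RPKM with pCCNE1 and uCCNE1 shRNA in 5iLA H7, against 28.8 with control, and 4.34 and 7.98 RPKM in t2iGo H1, against 12.4 with control. In primed H1 it had 25.7 and 66.9 RPKM, against 86.1 with control. Its log2 difference was -0.93 ± 0.25 (limma, adjusted p = 0.160), and the lowest share of control, 29.8%, was with pCCNE1 shRNA in primed H1. SLC1A5, the glutamine carrier, had 13.2 and 13.1 RPKM in 5iLA H7, against 43.6 with control, 20.0 and 19.4 RPKM in t2iGo H1, against 27.1 with control, and 87.3 and 130 RPKM in primed H1, against 148 with control. Its log2 difference was -0.86 ± 0.24 (limma, adjusted p = 0.165). AARS, the alanyl-tRNA synthetase, stood at 45.1% to 79.4% of control over the 6 libraries, with a log2 difference of -0.63 ± 0.18 (limma, adjusted p = 0.171).

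ATF4 messenger RNA did not share this pattern in every culture. It had 84.3 and 70.6 RPKM with pCCNE1 and uCCNE1 shRNA in 5iLA H7, against 123 with control, and 110.1 and 108 RPKM in t2iGo H1, against 116 with control. In primed H1 it had 370.2 and 396 RPKM, against 335 with control, so both primed CCNE1 shRNA libraries were above their control while both naive media were below. Its log2 difference over the 3 cultures was -0.19 ± 0.19 (limma, adjusted p = 0.676), the second smallest in size among the members after that of SLC7A11, the cystine carrier, at -0.12 ± 0.24 (limma, adjusted p = 0.833), which was 0.03 after median-ratio scaling. ATF4 has 4 annotated pseudogene copies that can share its reads. Quantile normalization, rescaling to protein-coding entries and leaving out the 5iLA libraries each put the ATF4 difference just above 0.

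**Figure D2:**
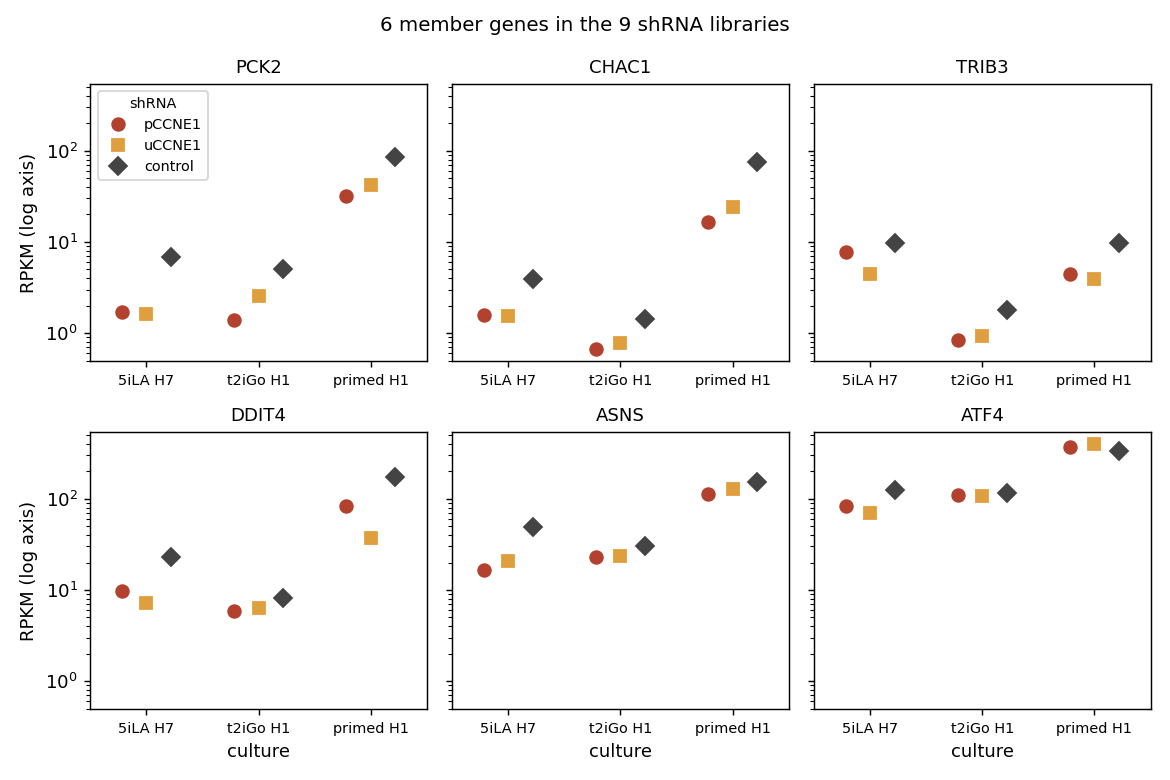
RPKM on a log axis of 6 members in the 9 shRNA libraries, by culture, with pCCNE1, uCCNE1 and control shRNA as separate symbols. For PCK2, CHAC1, TRIB3, DDIT4 and ASNS the control symbol is the highest in every culture, while for ATF4 it is the lowest in primed H1.

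Counted library by library, 22 of the 39 members were lower than control in all 6 CCNE1 shRNA libraries, against 14.2% of all genes, and 19 after median-ratio scaling, against 8.96%. When values were rescaled to protein-coding entries the count was 14 of 38, against 6.28% of all genes. MTHFD2 is listed under a non-coding RefSeq ID and is not among those 38. The 2 CCNE1 shRNA libraries of a culture share its control library, so these counts are not independent. The 22 were CEBPB, TRIB3, NUPR1, PPP1R15A, CHAC1, SESN2 and DDIT4 among the stress factors. They also included 9 enzymes (ASNS, PHGDH, PSAT1, PSPH, SHMT2, MTHFD2, PCK2, CTH and PYCR1), the transporters SLC7A5, SLC7A1 and SLC1A5, and the synthetases AARS, SARS and MARS. Some of the 22 rest on few reads in t2iGo H1, by the approximate depth. With pCCNE1, uCCNE1 and control shRNA, CEBPB had about 7.56, 6.56 and 21.5 reads, and TRIB3 13.3, 22.3 and 63.7. NUPR1 had 0, 0.143 and 0.389 RPKM there. Its read numbers are not given, since the transcript length used to infer them was doubtful and gave numbers that were too high. EPRS was lower in 2 libraries and SLC7A11 in 3. Each of the other 15 was lower in 4 or 5.

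The shRNAs against pCCNE1 and uCCNE1 gave similar sizes. With pCCNE1 shRNA, 38 of 39 members were below control (73.9% of all genes), with a median of -0.59 (all genes -0.15). No member passed in limma (0% of all genes), and 28 were lower at an unadjusted p under 0.05, against 13.2% of all genes. After median-ratio scaling 37 of 39 were below control (55.2%), with a median of -0.46 (all genes -0.03). At an unadjusted p under 0.05, 23 were then lower, against 1022 of all 12116 genes. PCK2 stood first again at -1.41 ± 0.19 (limma, adjusted p = 0.0617), then CHAC1 at -1.20 ± 0.26 and PYCR1 at -0.83 ± 0.19 (limma, adjusted p = 0.1996 each). Among genes with a mean of at least 5 RPKM, PCK2 passed with pCCNE1 shRNA (limma, adjusted p = 0.0134), 1 of 3 genes lower (0.0418%). SLC7A1 and SLC7A3, carriers of arginine and lysine, were at -0.67 ± 0.18 and -1.02 ± 0.30 (limma, adjusted p = 0.1996 and 0.203).

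With uCCNE1 shRNA, 39 of 39 were below control (73.9% of all genes), with a median of -0.57 (all genes -0.14). No member passed (0% of all genes), and 25 were lower at an unadjusted p under 0.05, against 9.14%. After median-ratio scaling 37 of 39 were below control (54.6%), with a median of -0.45 (all genes -0.03). At an unadjusted p under 0.05, 19 were then lower, against 690 of all 12116 genes. The leading members were PCK2 at -1.10 ± 0.19 (limma, adjusted p = 0.222), DDIT4 at -1.35 ± 0.29 and TRIB3 at -0.88 ± 0.19 (limma, adjusted p = 0.349 each). DDIT3, the stress factor CHOP, was at -0.99 ± 0.27 (limma, adjusted p = 0.349), and its exons overlap those of MARS on the other strand. CCNE1 itself was at -0.92 ± 0.20 with uCCNE1 and -0.54 ± 0.20 with pCCNE1 shRNA (limma, adjusted p = 0.349 and 0.246).

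Set directly against each other, pCCNE1 minus uCCNE1 had a member median of 0.00, with 20 members above 0 and 19 below. None passed in limma (0% of all genes), and 1 had an unadjusted p under 0.05, against 4.09% of all genes. That one was SLC7A1, at -0.40 ± 0.18 (limma, adjusted p = 0.990). DDIT3 was at 0.58 ± 0.27 and SLC7A3 at -0.60 ± 0.30 (limma, adjusted p = 0.990 each). The value was above 0 for 11 of 14 stress factors and below 0 for 5 of 6 transporters.

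The t2iGo libraries weighed on these calls. Without them, with 2 residual degrees of freedom, 7 members were lower with either shRNA at an adjusted p under 0.05 (limma), against 0.99% of all genes. These were CHAC1 (adjusted p = 0.0023), PCK2 (0.0048), DDIT4 (0.0049), STC2 (0.0082), ATF5 (0.0115), NUPR1 (0.0293) and DDIT3 (0.0392). With pCCNE1 shRNA alone 3 passed, PCK2, CHAC1 and ATF5, against 0.603% of all genes, and with uCCNE1 shRNA alone 6 passed, against 0.817%. STC2 is a secreted glycoprotein and ATF5 a transcription factor related to ATF4. Without the 5iLA or the primed libraries no member passed.

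Culture by culture, the members stood nearest to control in t2iGo H1, while the order of 5iLA H7 and primed H1 turned with the scaling. These values take the 2 CCNE1 shRNA libraries of a culture together against its 1 control library, which is assumed to vary like the others. In 5iLA H7 all 39 were below control (79.1% of all genes) with a median of -0.90, but the median of all genes was also low, at -0.32. After median-ratio scaling 37 were below control (47.8%), and the medians were -0.50 for the members and 0.01 for all genes. These values rest on 1 control library, which also differed from untreated 5iLA H7 in the members' shares given below. No member passed in limma (0.0495% of all genes), and 31 were lower at an unadjusted p under 0.05, against 20.7%, or 17 after median-ratio scaling, against 3.29%. In both libraries 37 of 39 were lower than control (69.5% of all genes), or 33 after median-ratio scaling (34.1%). Short RNAs moved with this comparison, at 12.9% and 17.9% of summed RPKM with pCCNE1 and uCCNE1 shRNA, against 24.3% with control. The naive markers came to 581 and 492.5 RPKM with pCCNE1 and uCCNE1 shRNA, against 862 with control. These sums are not rescaled, and all genes summed to 140408 and 139202 RPKM, against 224314 with control. KLF17, DNMT3L, TFCP2L1, ARGFX and SUSD2 were above control with pCCNE1 shRNA. The primed markers came to 52.6 and 49.3 RPKM with pCCNE1 and uCCNE1 shRNA, against 22.9 with control. Most of this was CD24, at 41.6 and 40.8 RPKM, against 18.0 with control, while SFRP2 and FAT3 were below control with both shRNAs. The 14 fibroblast and feeder markers came to 19.5 and 22.2 RPKM with pCCNE1 and uCCNE1 shRNA, against 8.46 with control, with 9, 9 and 12 of them under 1 RPKM. The part of short RNAs and of these cells in the result was not tested.

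The enzymes had the lowest median of the 4 roles in 5iLA H7, at -1.04 as deposited and -0.63 after median-ratio scaling. The synthetases were at -0.86 and -0.40, the stress factors at -0.76 and -0.44, and the transporters at -0.76 and -0.39. ASNS, the asparagine synthetase, had 16.7 and 20.6 RPKM with pCCNE1 and uCCNE1 shRNA, against 49.3 with control, a log2 difference of -1.36 ± 0.21 (limma, adjusted p = 0.171). SLC1A5 was at -1.66 ± 0.26, MTHFD2 at -1.13 ± 0.19 and PCK2 at -1.55 ± 0.30 (limma, adjusted p = 0.171 each). The synthetases SARS, EPRS and AARS were at -1.04 ± 0.21, -0.95 ± 0.20 and -0.997 ± 0.21, and PSAT1 at -1.13 ± 0.24 (limma, adjusted p = 0.171 each). ASNS and PSAT1 have 4 annotated pseudogene copies each. At an unadjusted p under 0.05, 7 of 7 synthetases and 11 of 12 enzymes were lower as deposited (20.7% of all genes), but 3 of 7 and 8 of 12 after median-ratio scaling (3.29%). CTH, which makes cysteine from cystathionine, was at -0.90 ± 0.19 and STC2 at -1.38 ± 0.30 (limma, adjusted p = 0.171 each). ATF4 was at -0.67 ± 0.21 (limma, adjusted p = 0.172).

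In primed H1 the stress factors led. Of the 39 members, 35 were below control (52.3% of all genes) with a median of -0.49, against -0.02 over all genes. After median-ratio scaling 35 were below control (58.8%), and the medians were -0.53 and -0.06. None passed (0.0578% of all genes), and 12 were lower at an unadjusted p under 0.05, against 6.56%, or 18 after median-ratio scaling, against 6.59%. In both libraries 33 of 39 were lower than control (34% of all genes), and 33 also after median-ratio scaling (39.2%). The median of the 14 stress factors was -1.05, of the enzymes -0.49, of the transporters -0.48 and of the synthetases -0.19. Of the 12 members with an unadjusted p under 0.05, 9 were stress factors and 3 enzymes, and of the 18 after median-ratio scaling 9 were stress factors, 6 enzymes, 1 a transporter and 2 synthetases.

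CHAC1 had the largest difference in primed H1, at -1.86 ± 0.27 (limma, adjusted p = 0.165). CEBPB, a partner of ATF4 in binding the composite element, had 2.24 and 1.91 RPKM with pCCNE1 and uCCNE1 shRNA, against 6.34 with control (-1.26 ± 0.23; limma, adjusted p = 0.249). ATF5 had 4.54 and 6.80 RPKM, against 15.3 with control (-1.31 ± 0.27; limma, adjusted p = 0.279), and its exons overlap those of NUP62 and IL4I1 on the other strand. SESN2, a leucine sensor that restrains mTORC1, had 7.68 and 11.3 RPKM, against 24.4 with control, at -1.30 ± 0.31 (limma, adjusted p = 0.317). These differences were close to those of STC2 at -1.20 ± 0.30 and PCK2 at -1.17 ± 0.30 (limma, adjusted p = 0.371 each). ATF3, a stress-induced repressor and activator, had 14.6 and 12.0 RPKM, against 26.2 with control, at -0.93 ± 0.27 (limma, adjusted p = 0.430). ATF4 itself was at 0.19 ± 0.21 (limma, adjusted p = 0.962).

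In t2iGo H1, 31 of 39 members were below control (58.2% of all genes) with a median of -0.23, against -0.05 over all genes. After median-ratio scaling 30 were below control (53.1%), and the medians were -0.19 and -0.02. None passed (0.0495% of all genes), and 4 were lower at an unadjusted p under 0.05, against 2.68%, and 4 after median-ratio scaling, against 2.7%. In both libraries 28 of 39 were lower than control (41.4% of all genes), or 27 after median-ratio scaling (39.5%). The 4 were PCK2 at -1.04 ± 0.30, PHGDH at -0.78 ± 0.28, PYCR1 at -0.70 ± 0.25 and MARS, the methionyl-tRNA synthetase, at -0.57 ± 0.24 (limma, adjusted p = 1 each). The 13 endoderm and liver markers summed to 163 and 165 RPKM with pCCNE1 and uCCNE1 shRNA in these libraries, against 71.8 with control. Most of the sum was APOA2, at 97.6 and 105 RPKM, against 40.6 with control. The endoderm regulators SOX17, FOXA2, GATA4 and GATA6 on this list were below control with both shRNAs. The 8 general pluripotency markers summed to 576 and 670 RPKM with pCCNE1 and uCCNE1 shRNA, against 690 with control. Among them POU5F1 had 13.6 and 18.2 RPKM, against 34.6 with control. SOX2 and PODXL were above control with both shRNAs, and the rest of these markers were below it. The 14 fibroblast and feeder markers summed to 290.9 and 189 RPKM, against 124 with control. The part of these cells in the members' values was not tested.

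**Figure D3:**
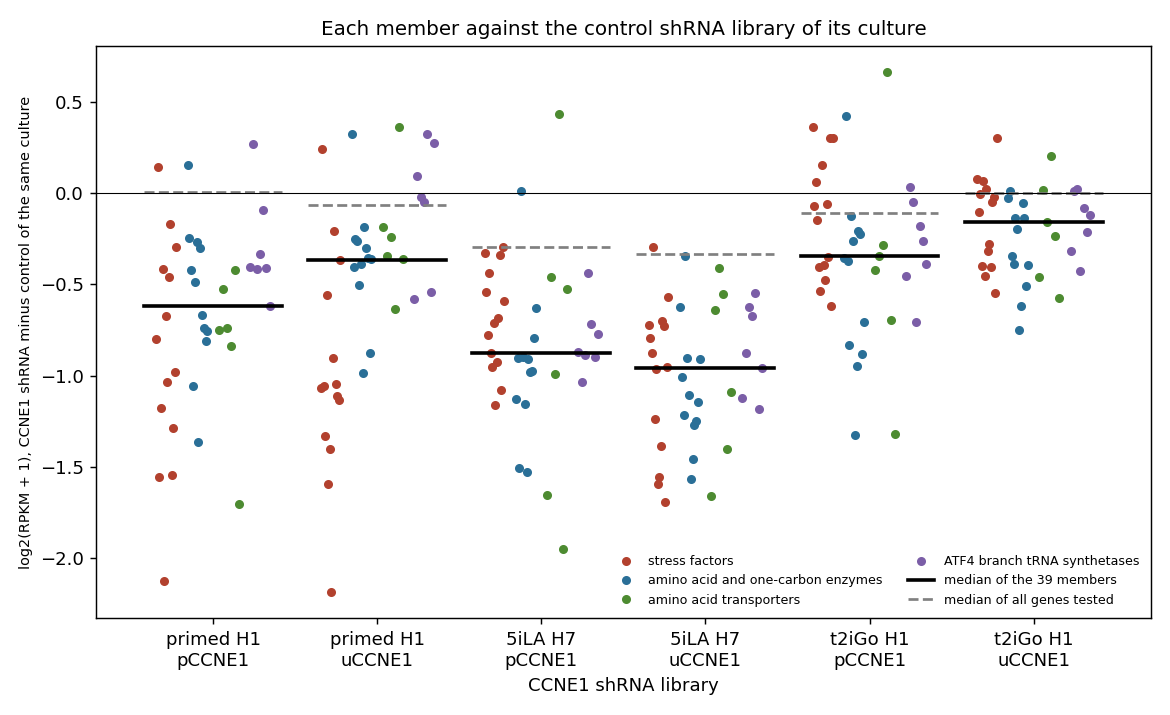
Difference of each of the 39 tested members (points, coloured by role) from the control shRNA library of the same culture, on log2(RPKM + 1), in the 6 CCNE1 shRNA libraries, with the member median (black line) and the median of all genes (dashed). The member median lies below that of all genes in each of the 6 libraries, and the gap is smallest in t2iGo H1 with uCCNE1 shRNA.

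The differences between cultures did not pass a test. Both CCNE1 shRNA libraries of a culture were above control and both of another below it for 8 of 39 members, against 39.3% of all genes, and for 10 after median-ratio scaling, against 36%. For the mean of the 5iLA and t2iGo effects minus the primed effect, the member median was -0.10, against -0.15 over all genes, or 0.15 against 0.09 after median-ratio scaling. No member passed in limma (0.107% of all genes), and 6 had an unadjusted p under 0.05, against 6.65%, or 5 after median-ratio scaling, against 4.83%. Of these 6, 5 were stress factors with a smaller difference on log2(RPKM + 1) in the naive media than in primed H1. They were led by CHAC1 at 1.13 ± 0.33, CEBPB at 0.93 ± 0.28 and ATF5 at 0.91 ± 0.33 (limma, adjusted p = 0.718 each). Their levels were low in the naive media, where this scale understates a change, so percents of control with pCCNE1 and uCCNE1 shRNA follow. ATF5 was at 42.3% and 36.7% of control in 5iLA H7, 107% and 99.6% in t2iGo H1, and 29.7% and 44.6% in primed H1. In the same order CHAC1 was at 39.5% and 39%, 47.2% and 54.2%, and 21.9% and 32.2%. CEBPB was at 57.6% and 70.3%, 77.9% and 44.6%, and 35.4% and 30.2%. EPRS was at -0.65 ± 0.24 (limma, adjusted p = 0.718). For the t2iGo effect minus the 5iLA effect, the member median was 0.69, against 0.25 over all genes, or 0.30 against -0.06 after median-ratio scaling. No member passed (0.0248% of all genes), and 11 had an unadjusted p under 0.05, against 7.68%, or 1 after median-ratio scaling, against 4.53%. STC2 at 1.52 ± 0.43, EPRS at 0.97 ± 0.28 and MTHFD2 at 0.90 ± 0.27 stood first (limma, adjusted p = 0.626 each).

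With either CCNE1 shRNA, related genes outside the 40 had medians nearer to 0 than the members, where the median of all genes was -0.14. The 22 other ATF4 targets had a median of -0.33, or -0.20 after median-ratio scaling, where all genes had -0.03. Of these 22, as deposited, 18 were below 0 (75.9% of all genes) and 9 lower at an unadjusted p under 0.05 (13.9%). GPT2, a mitochondrial alanine aminotransferase, was at -0.62 ± 0.15 (limma, adjusted p = 0.160). LONP1, a mitochondrial protease, was at -0.67 ± 0.19 and FPGS, which adds glutamate to folate, at -0.52 ± 0.14 (limma, adjusted p = 0.165 each). The medians of 7 other cytosolic synthetases, 17 mitochondrial synthetases, 14 other folate and methionine enzymes and 15 eIF2 kinases and eIF2 machinery genes were -0.21, -0.21, -0.14 and -0.15. The 16 ATF6 and XBP1 branch genes, the arm of the unfolded protein response that makes chaperones, had a median of -0.12, with 0 at an unadjusted p under 0.05. No gene of these 6 lists passed in limma. In primed H1 the ATF6 and XBP1 genes had a median of 0.21, with 3 of 16 below control, or 0.15 after median-ratio scaling. There the stress factors of the ATF4 branch had -1.05, or -1.03 after that scaling. The 22 other ATF4 targets there had -0.02, as had all genes, with 12 below control (52.3% of all genes). In 5iLA H7, 16 of 16 ATF6 and XBP1 genes were below control (79.1% of all genes), with a median of -0.57. After median-ratio scaling 12 of 16 were (47.8%), at -0.16. The other ATF4 targets had -0.71 in 5iLA H7, or -0.29 after that scaling.

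The members were far lower in t2iGo H1 than in primed H1. The 3 shRNAs stand in for replicates here, and medium and preparation cannot be told apart. The 13 endoderm and liver markers summed to 71.8 to 165 RPKM in t2iGo H1 and to 1.77 to 6.74 RPKM in primed H1, and their part in the result was not tested. Of the 39 tested, 35 fell, 0 rose and 4 did not pass in limma, against 63% of all genes lower and 8.77% higher. The member median was -1.82, against -0.82 over all genes. After median-ratio scaling 30 were lower and 2 higher, against 38.6% and 27.3% of all genes, and the medians were -1.08 and -0.13. All 12 enzymes fell, with 12 of 14 stress factors, 5 of 6 transporters and 6 of 7 synthetases. After median-ratio scaling the lower counts were 10 of 12 enzymes, 11 of 14 stress factors, 5 of 6 transporters and 4 of 7 synthetases. As deposited, DDIT3, NUPR1, SLC7A11 and EPRS did not pass.

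Large differences were found among the enzymes. PCK2 averaged 3.01 RPKM in t2iGo H1 and 52.9 RPKM in primed H1 and fell by 3.73 on the log2 scale (SE 0.19; limma, adjusted p = 8.65e-08). PHGDH, which commits a glycolytic intermediate to serine, had 18.8, 23.8 and 37.1 RPKM with pCCNE1, uCCNE1 and control shRNA in t2iGo H1, against 278, 301 and 342 RPKM in primed H1. The groups did not overlap, and the log2 difference was -3.53 ± 0.25 (limma, adjusted p = 4.05e-07). SHMT2 averaged 13.7 RPKM in t2iGo H1 and 128 RPKM in primed H1 (-3.13 ± 0.20; limma, adjusted p = 2.44e-07). PYCR1 averaged 4.37 RPKM in t2iGo H1 and 62.0 RPKM in primed H1 (-3.54 ± 0.19; limma, adjusted p = 1.13e-07). CBS, which makes cystathionine from homocysteine, averaged 11.6 RPKM in t2iGo H1 and 151 RPKM in primed H1 (-3.57 ± 0.24; limma, adjusted p = 3.08e-07).

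Among the stress factors and transporters, CHAC1 had the largest difference of all members. CHAC1 had 0.674 to 1.43 RPKM in the t2iGo libraries, against 16.6 to 75.8 RPKM in primed H1, with a log2 difference of -4.07 ± 0.26 (limma, adjusted p = 2.39e-07). DDIT4 had 5.93 to 8.09 RPKM in t2iGo H1, against 37.1 to 173 RPKM in primed H1 (-3.42 ± 0.29; limma, adjusted p = 1.35e-06). SLC7A3 averaged 8.19 RPKM in t2iGo H1 and 89.5 RPKM in primed H1, and SLC7A1 averaged 4.52 RPKM in t2iGo H1 and 24.9 RPKM in primed H1 (-3.29 ± 0.30 and -2.20 ± 0.18; limma, adjusted p = 1.79e-06 and 1.04e-06). AARS fell by 2.12 (SE 0.21; limma, adjusted p = 3.09e-06), and ATF4 by 1.71 (SE 0.22; limma, adjusted p = 3.02e-05), with 108 to 116 RPKM in t2iGo H1 and 335 to 396 RPKM in primed H1. EPRS went the other way by its mean, 63.3 RPKM in t2iGo H1 and 52.2 RPKM in primed H1, without passing as deposited (0.28 ± 0.25; limma, adjusted p = 0.342). After median-ratio scaling 1 synthetase and 1 transporter passed as higher in t2iGo H1, where the highest differences of these lists were 1.07 and 0.78. As deposited, EPRS and SLC7A11 held the highest values of these lists, at 0.28 and 0.05. Outside the members, GPT2 and FPGS fell by 2.86 and 2.58, and SARS2, a mitochondrial synthetase, by 2.46 (limma, adjusted p = 2.01e-07, 2.57e-07 and 5.43e-07).

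**Figure D4:**
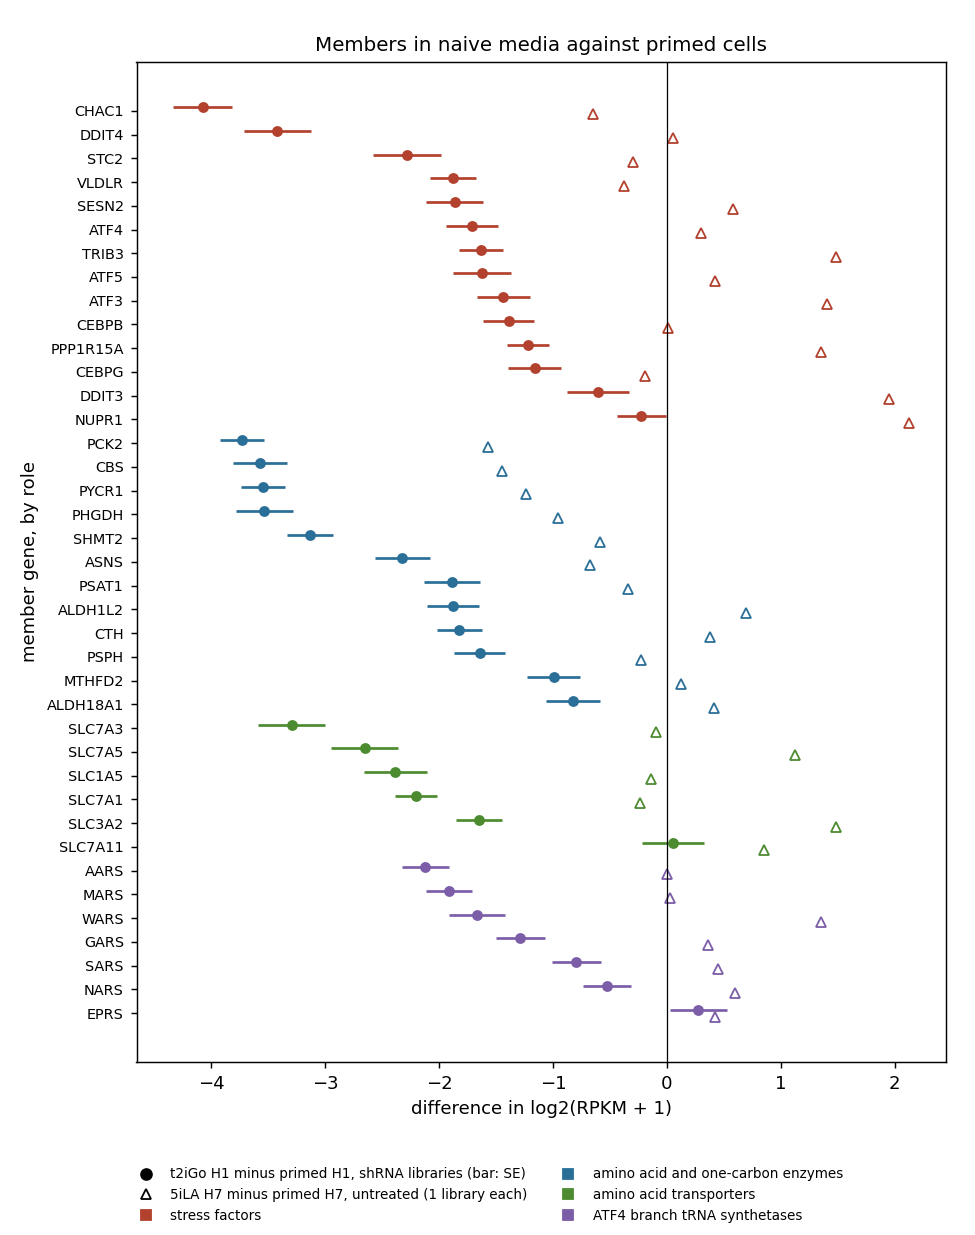
Difference in log2(RPKM + 1) of each of the 39 members between t2iGo H1 and primed H1 in the shRNA libraries (filled circles with SE) and between untreated 5iLA H7 and primed H7 (open triangles, 1 library each, no error). The circles lie left of 0 for 37 of 39 members, and the triangles lie on both sides, with PCK2, CBS and PYCR1 farthest left and NUPR1 and DDIT3 farthest right.

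Between the 5iLA H7 and t2iGo H1 cells, the members split. Here the line and the medium cannot be told apart. The 13 endoderm and liver markers summed to 0.775 to 1.55 RPKM in the 5iLA H7 libraries and to 71.8 to 165 RPKM in t2iGo H1, and the 14 fibroblast and feeder markers to 8.46 to 22.2 RPKM in 5iLA H7 and to 124 to 290.9 RPKM in t2iGo H1. The part of these cells in the result was not tested. In limma 10 members were higher in 5iLA H7 and 6 lower, against 14.9% and 40.1% of all genes, and the member median was 0.07, against -0.31 over all genes. After median-ratio scaling 22 were higher and 3 lower, against 28.2% and 27.4% of all genes, and the medians were 0.52 and 0.02. TRIB3 had 7.68, 4.50 and 9.64 RPKM with pCCNE1, uCCNE1 and control shRNA in 5iLA H7, against 0.836, 0.928 and 1.82 RPKM in t2iGo H1. The groups did not overlap, and TRIB3 rose by 1.89 ± 0.19 (limma, adjusted p = 1.21e-05). NUPR1 averaged 4.30 RPKM in 5iLA H7 and 0.178 RPKM in t2iGo H1 (2.06 ± 0.22; limma, adjusted p = 1.43e-05).

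ALDH1L2, a mitochondrial folate enzyme, averaged 4.81 RPKM in 5iLA H7 and 0.353 RPKM in t2iGo H1 (2.04 ± 0.23; limma, adjusted p = 2.40e-05). WARS averaged 112 RPKM in 5iLA H7 and 25.4 RPKM in t2iGo H1 (2.04 ± 0.25; limma, adjusted p = 4.23e-05), and its exons overlap those of WDR25 on the other strand. CTH, DDIT3 and SLC7A5 were also higher, by 1.199 ± 0.20, 1.16 ± 0.27 and 1.25 ± 0.29 (limma, adjusted p = 0.000369, 0.00366 and 0.00390). Among the lower members, PSAT1 averaged 31.3 RPKM in 5iLA H7 and 60.8 RPKM in t2iGo H1 (-1.04 ± 0.24; limma, adjusted p = 0.00374). SLC7A1 and VLDLR, a lipoprotein receptor, were lower by their differences of -0.77 ± 0.18 and -0.78 ± 0.20 (limma, adjusted p = 0.00396 and 0.00691). Without the uCCNE1 libraries PSAT1 and VLDLR no longer passed (limma, adjusted p = 0.0746 and 0.105), and without the pCCNE1 libraries SLC7A1 and VLDLR did not (limma, adjusted p = 0.0605 and 0.0527), with 1 and 2 members lower in all. ATF4 was at -0.30 ± 0.22 (limma, adjusted p = 0.280), or 0.15 after median-ratio scaling. GDF15, a secreted stress cytokine outside the 40, averaged 5.51 RPKM in 5iLA H7 and 0.146 RPKM in t2iGo H1 (2.44 ± 0.20; limma, adjusted p = 2.55e-06).

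Untreated H7 cells allowed 5iLA to be set against primed culture in 1 line, with 1 library on each side and so no test. The median difference of the 40 members, 5iLA minus primed, was 0.21, against 0.23 over 11015 genes. Of the 40, 9 were at least 2-fold higher in 5iLA on the log2(RPKM + 1) scale (11% of all genes) and 3 at least 2-fold lower (3.94%). After median-ratio scaling 7 were higher (7.59%) and 4 lower (6.26%), and the medians were -0.05 for the members and 0.01 for all genes. The enzymes had a median of -0.47, or -0.73 after median-ratio scaling. The stress factors had 0.36, or 0.14, the transporters 0.85, or 0.60, and the synthetases 0.42, or 0.16. The 10 naive markers summed to 171 RPKM in untreated 5iLA and 1.86 RPKM in primed H7, and the 10 primed markers to 337.5 RPKM in 5iLA and 822 RPKM in primed H7. Short RNAs held 31.4% of summed RPKM in untreated 5iLA and 7.61% in primed H7, and the 14 fibroblast and feeder markers summed to 171.5 RPKM in untreated 5iLA and 53.7 RPKM in primed H7. The part of either in these values was not tested.

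The 3 lower members were enzymes. PCK2 had 4.21 RPKM in untreated 5iLA and 14.5 RPKM in primed H7, CBS had 13.5 RPKM in 5iLA and 38.6 RPKM in primed H7, and PYCR1 had 3.29 RPKM in 5iLA and 9.12 RPKM in primed H7. Among the higher members, NUPR1 had 3.82 RPKM in 5iLA and 0.105 RPKM in primed H7, and DDIT3 had 18.7 RPKM in 5iLA and 4.10 RPKM in primed H7. TRIB3 had 5.20 RPKM in 5iLA and 1.22 RPKM in primed H7, and ATF3 had 10.2 RPKM in 5iLA and 3.26 RPKM in primed H7. PPP1R15A, which directs the eIF2 phosphatase, had 8.02 RPKM in 5iLA and 2.54 RPKM in primed H7. SLC3A2, the shared heavy chain of the SLC7A5 and SLC7A11 carriers, had 83.1 RPKM in 5iLA and 29.1 RPKM in primed H7, and WARS had 57.3 RPKM in 5iLA and 21.8 RPKM in primed H7. SLC1A4 and SLC7A5 completed the 9 higher members. ATF4 differed little, at 131 RPKM in 5iLA and 106 RPKM in primed H7.

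Summed over the 40 members, RPKM as a percent of the summed RPKM of protein-coding entries followed the same picture. MTHFD2, under a non-coding RefSeq ID, is counted in the first sum but not in the second, so this share is a ratio of unlike sets. In 5iLA H7 the members held 0.686% and 0.664% with pCCNE1 and uCCNE1 shRNA, against 0.895% with control. In t2iGo H1 they held 0.544% and 0.528%, against 0.585% with control, and in primed H1 0.777% and 0.904%, against 1.06% with control. Both CCNE1 shRNA libraries were thus below the control in each culture, with the narrowest gap in t2iGo H1. In untreated H7 the share was 0.712% in 5iLA and 0.772% in primed cells. Untreated 5iLA H7 was thus below the 5iLA control shRNA library and above both CCNE1 shRNA libraries, across separately normalised values. By role, untreated 5iLA was below that control for stress factors (0.153% against 0.167%), enzymes (0.181% against 0.239%) and synthetases (0.249% against 0.381%). It was above that control for transporters (0.129% against 0.109%). The reason was not tested. The enzymes alone held 0.157% and 0.159% with pCCNE1 and uCCNE1 shRNA in 5iLA H7, against 0.239% with control. The stress factors in t2iGo H1 were above control with pCCNE1 shRNA, at 0.118%, and below it with uCCNE1 shRNA, at 0.104%, against 0.111% with control. The other roles there, and all roles in 5iLA H7 and primed H1, were below control with both shRNAs.

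**Figure D5:**
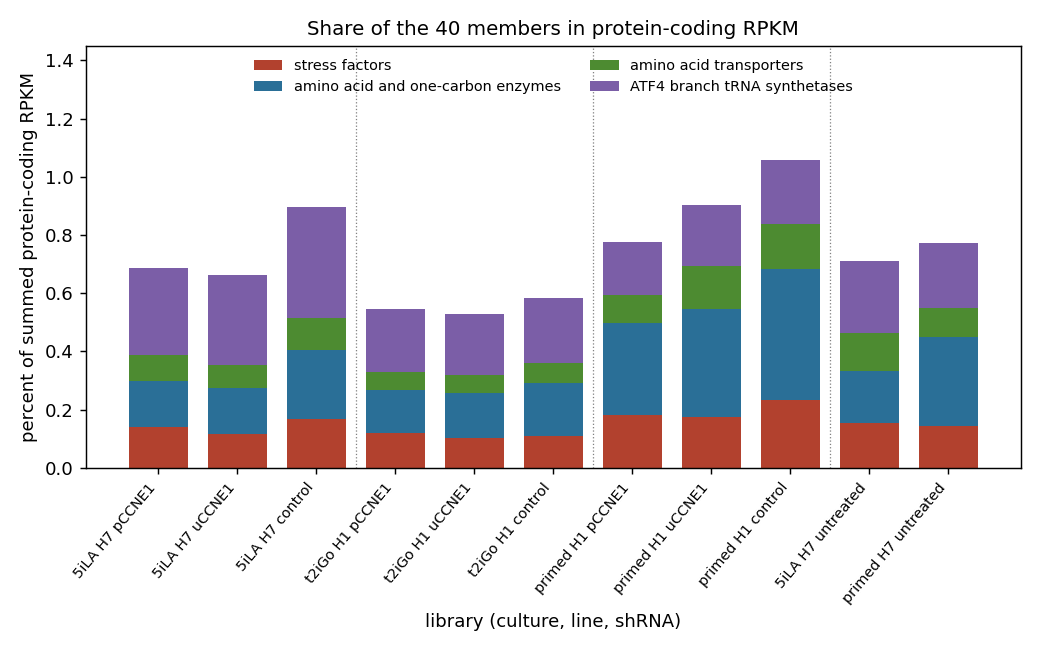
Summed RPKM of the 40 members as a percent of the summed RPKM of protein-coding entries in each library, stacked by role. MTHFD2, under a non-coding RefSeq ID, is in the first sum only. There is 1 bar per library and no error, since each group is 1 library. The control bar is the tallest of each culture, at 0.895% in 5iLA H7, 0.585% in t2iGo H1 and 1.06% in primed H1.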

How the data were processed

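RNA from 11 groups of human embryonic stem cells, 1 library each, was measured by sequencing. RNA isolation used RNeasy Mini columns and library construction a TruSeq RNA kit, per the labels' protocols. TopHat2 2.3.0, Cufflinks 1.2.1 and the hg19 build are named per the submitters' processing notes, and strand use in counting is not given in the sources used here. The authors deposited RPKM values for 23287 genes in 2 tables, 9 shRNA libraries and 2 untreated libraries, treated as normalised separately. RPKM holds no read totals, so depth was estimated from the steps of low values and is approximate.

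Genes with a mean of at least 1 RPKM were tested (12116, and 11015 in the untreated table) on log2(RPKM + 1) with limma 3.58.1 in R 4.3.3, with an intensity trend and Benjamini-Hochberg adjustment over all genes at 0.05. Culture and shRNA were additive terms (4 residual degrees of freedom). Effects within a culture used 6 cell means (3 residual degrees of freedom). The models were tested on simulated data. The untreated pair was described by a 2-fold difference, without a test. Sequences came from RefSeq, build GRCh38.p14, matched by accession for 39 members and by symbol for 1, and overlaps and copies from GENCODE on GRCh38; no coordinates were carried between builds.

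The members and all lists were chosen with earlier results of these data known. Named in full were up to 10 members with the smallest p in a comparison, or the largest difference for the untreated pair, plus ATF4 and CCNE1, and up to 3 genes from the other lists. Further members are given as counts or values. Alternatives changed the pseudocount (0.1), filter (none, or 5 RPKM), scaling, trend, culture term and the set of libraries.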

Additional observations from a re-analysis of the deposited data

Results flagged for a closer look

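For 8 members, both CCNE1 shRNA libraries of one culture were above their control while both of another were below it. By the same rule 39.3% of all genes tested would be listed, so 8 of 39 is not more than usual. The values are differences between the cultures' mean CCNE1 shRNA effects on log2(RPKM + 1). The differences that involve primed H1 alone were not tested singly. The tests of t2iGo minus 5iLA and of the naive media minus primed H1 passed for none of these 8 in limma. At an unadjusted p under 0.05 the first held for EPRS, ALDH1L2 and VLDLR and the second for EPRS and ATF3.

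ATF4 was lower with CCNE1 shRNA in 5iLA H7 and t2iGo H1 and higher in primed H1, by -0.86 for 5iLA minus primed and -0.28 for t2iGo minus primed. ALDH18A1, which starts proline synthesis, had the same pattern, at -1.12 and -0.43. EPRS was at -1.13 for 5iLA minus primed and 0.97 for t2iGo minus 5iLA.

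DDIT3 was slightly above control in t2iGo H1 and below it in both other cultures, at 1.13 for t2iGo minus primed and 1.24 for t2iGo minus 5iLA. ATF3 was at 1.15 and 0.74, VLDLR at 0.63 and 0.88, and ALDH1L2 at 0.54 and 1.17 for the same pairs. SLC7A11 was at 1.17 for t2iGo minus primed.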

How the results depend on the processing

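Leaving out the libraries of 1 culture gave 0 to 7 members lower with either CCNE1 shRNA, 0 to 3 with pCCNE1 and 0 to 6 with uCCNE1, the highest counts without t2iGo. At a mean of at least 5 RPKM the first and second of these counts were 1 each. ATF4 crossed 0 under several settings, and the cause was not tested. With either shRNA it was 0.0515 under quantile normalization, 0.0331 for protein-coding entries and -0.379 to 0.0512 on leaving out 1 culture. With pCCNE1 it was 0.00226 under median-ratio scaling, 0.101 under quantile normalization, 0.0766 for protein-coding entries and -0.308 to 0.0354 on leaving out 1 culture. With uCCNE1 it was 0.00224 under quantile normalization and -0.451 to 0.0669 on leaving out 1 culture. For pCCNE1 minus uCCNE1 it was -0.0315 to 0.143 on leaving out 1 culture. In t2iGo H1 it was 0.0243 under quantile normalization and 0.00902 for protein-coding entries, and for 5iLA minus t2iGo it was 0.154 under median-ratio scaling.

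Scaling moved the culture medians. For t2iGo against primed H1 the member median was -1.08, -0.89 and -0.76 under median-ratio scaling, quantile normalization and protein-coding entries, with 2, 3 and 4 members higher. For 5iLA against t2iGo, 22, 19 and 18 were higher under these 3 scalings, and under median-ratio scaling 3 were lower with a median of 0.52. Leaving out the libraries of 1 shRNA gave 1 to 7 lower. Within 5iLA H7 the median was -0.97 at a pseudocount of 0.1 and -0.50, -0.44 and -0.45 under the 3 scalings. The naive minus primed effect was 0.15, 0.15 and 0.10, and the t2iGo minus 5iLA effect was 0.30, 0.34 and 0.27. Members lower in all 6 libraries numbered 14 for protein-coding entries. The untreated median was -0.053 under median-ratio scaling and -0.000889 for protein-coding entries.

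With 1 library per group, small differences are not detectable here, and estimated depths down to 6.344 M reads leave low members imprecise. Libraries of the same culture were compared through the culture term of the model, and leaving that term out also gave 0 members passing for either CCNE1 shRNA, for pCCNE1 and for uCCNE1. The labels give no replicate numbers to pair by.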
